A study of Mus musculus with 20 samples.

Results

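The HoxD cluster was described as the peaks that overlap 1 window of 142 kb on chromosome 2, at 74475001-74617000 of the mouse build mm9, in which Hoxd13 lies at the low end and Hoxd1 at the high end. The window was set by position and not by any measured value. It held 277 of the 4480164 peaks in the 10 lists. By list these were 2 and 3 H3K27me3 peaks in proliferating WT and SS cells, 73 and 33 H3K27me3 peaks in arrested WT and SS cells, and 43 and 54 Ezh2 peaks in serum-deprived WT and SS cells. There were 24 and 30 pRb peaks in arrested WT and SS cells, and 6 and 9 in proliferating WT and SS cells. All cells were primary embryonic fibroblasts of the C57BL/6 strain, taken at E13.5 and grown to passage 4 in 10% serum, either wild type (WT) or of a mutant genotype that is labelled SS and not spelled out. Proliferating cells were asynchronous; H3K27me3 and Ezh2 libraries of arrested cells came from serum deprivation (0.1% serum for 72 h). The arrested pRb libraries carry 1 label for confluence and 1 for serum deprivation. Each group had 1 library, so nothing here could be checked against replicates or tested. The pRb label lists 5 antibodies, those for H3K27me3 and Ezh2 1 each.

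HoxD is among the mammalian Hox clusters, and its genes encode homeodomain transcription factors that give cells a position along the body axis and the limb. They are switched on in their order along the chromosome, from Hoxd1 towards Hoxd13. Where a Hox gene is off, Polycomb repressive complex 2, whose catalytic subunit is Ezh2, trimethylates histone H3 at lysine 27 (H3K27me3) over long stretches of the cluster. pRb, the retinoblastoma protein, is a chromatin-bound regulator of the cell cycle that acts largely through E2F transcription factors.

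Sorted by their RefSeq gene starts, the 9 genes come as Hoxd13, Hoxd12, Hoxd11, Hoxd10, Hoxd9, Hoxd8, Hoxd3, Hoxd4 and Hoxd1. All are on the plus strand. Gene ends and coding parts were not compared, so the order of coding parts can differ where genes overlap, as for Hoxd3 and Hoxd4. Evx2, another homeobox gene, neighbours Hoxd13, and Mtx2, which encodes a mitochondrial import protein, is the next protein-coding gene beyond Hoxd1. Hoxd13 to Hoxd9 pattern the limb, Hoxd13 above all the digits; Hoxd3 and Hoxd4 pattern the neck and hindbrain, and Hoxd1 acts in sensory neurons. The start of Mir10b, a microRNA gene, comes after that of Hoxd4 and before that of Hoxd1. Whether Mir10b lies inside the Hoxd4 gene was not examined. This annotation belongs to another build (GRCm38.p6), so it gave the order of starts alone. No peak was assigned to a gene. Positions within the window are described by how near they are to the Hoxd13 or the Hoxd1 end.

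The promoter sequences of the members differ widely in CpG content. The range is shown by 3 stretches of 250 bases that end just before a RefSeq start: the outermost genes Hoxd13 and Hoxd1, and Hoxd4, whose listed start is poor in CpG. They are printed from the plus strand of GRCm38.p6, whose coordinates cannot be set beside those of the peaks, at chr2:74667975-74668224, chr2:74721728-74721977 and chr2:74762730-74762979. Capitals mark CpG dinucleotides, the feature that Polycomb complexes are known to favour when unmethylated.
Hoxd13: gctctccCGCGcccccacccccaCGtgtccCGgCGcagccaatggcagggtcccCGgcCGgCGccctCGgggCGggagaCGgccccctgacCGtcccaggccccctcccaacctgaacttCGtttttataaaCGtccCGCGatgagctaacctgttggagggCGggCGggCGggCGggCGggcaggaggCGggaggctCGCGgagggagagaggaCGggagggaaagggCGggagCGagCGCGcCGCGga
Hoxd4: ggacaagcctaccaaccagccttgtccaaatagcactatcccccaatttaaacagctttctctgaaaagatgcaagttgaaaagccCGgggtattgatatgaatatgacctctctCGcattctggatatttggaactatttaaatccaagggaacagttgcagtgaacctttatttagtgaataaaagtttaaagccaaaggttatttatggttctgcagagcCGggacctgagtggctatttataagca
Hoxd1: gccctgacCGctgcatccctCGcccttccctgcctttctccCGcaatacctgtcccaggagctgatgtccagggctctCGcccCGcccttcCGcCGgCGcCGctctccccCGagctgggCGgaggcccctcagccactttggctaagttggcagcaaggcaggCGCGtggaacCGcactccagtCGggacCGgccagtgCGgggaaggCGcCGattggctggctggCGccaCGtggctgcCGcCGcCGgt
The number of CpG was 31 for Hoxd13, 24 for Hoxd1 and 3 for Hoxd4, against a median of 6 over 32851 RefSeq promoters of the same length. Only 4.58% of those promoters held more CpG than that of Hoxd13, while 62.2% held more than that of Hoxd4. Between these lay Hoxd10 with 20, Hoxd9 with 13, Hoxd3 with 12, Hoxd12 with 10 and Hoxd8 with 6, and Hoxd11 had 2 and 20 at its 2 listed starts. Of the 10 Hoxd promoters 7 were above the median, as were 46.3% of all promoters. None of the 10 held an E2F word (TTTCCCGC, TTTCGCGC, TTTGCCGC or TTTGGCGC on either strand), which 1.86% of all promoters held, so these letters are simply not in these windows. The letters TATAAA, on either strand, stood in 2 of the 10, those of Hoxd13 and Hoxd4, and in 12.4% of all promoters. The mature 5′ arm of the microRNA that RefSeq places inside the cluster is given as a landmark, with its seed (bases 2 to 8) in capitals.
miR-10b-5p: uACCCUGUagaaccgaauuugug

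In proliferating cells H3K27me3 covered nearly the whole cluster as 1 continuous peak. In WT cells that peak ran from 74476009 to 74616193, a length of 140185 bp or 98.7% of the window, and in SS cells from 74477066 to 74610215, a length of 133150 bp or 93.8%. It ranked 4 by length among the 143252 peaks of the WT list and 8 among the 168793 of the SS list. By the authors' score, the -log10 q-value, 0.269% of WT peaks and 0.158% of SS peaks stood higher. With the smaller peaks beside it, H3K27me3 covered 98.8% of the window in WT and 97.0% in SS cells. What stayed uncovered in WT cells was the first 1008 bp of the window and a gap of 664 bp near its high end. In SS cells it was the first 2065 bp and 3 gaps of 640, 784 and 831 bp beyond position 74610215. Counted in steps of 5 kb from the Hoxd13 end, steps 2 to 27 of 29 were covered to 100% in both genotypes.

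**Figure D1:**
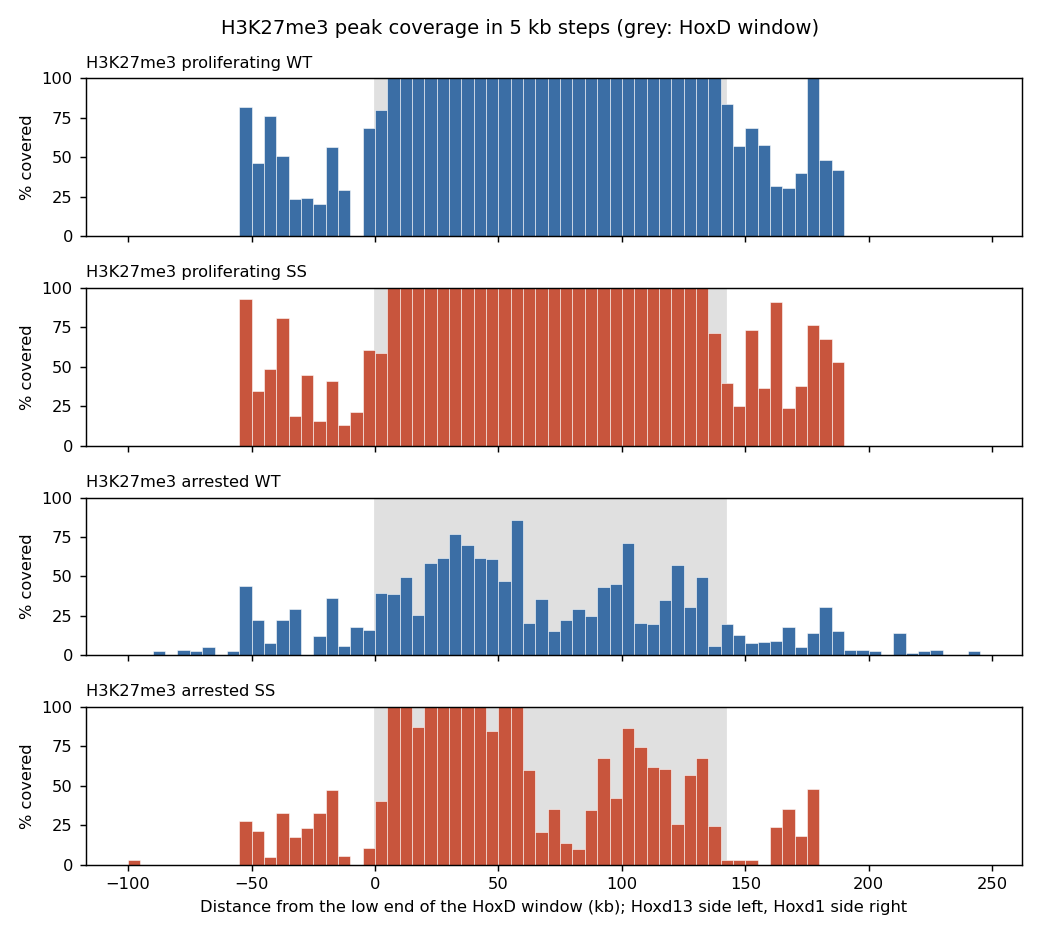
Share of each 5 kb step covered by H3K27me3 peaks (y axis, %) against the distance from the low end of the HoxD window (x axis, kb), in 4 libraries, 1 per panel, with WT in blue and SS in red. The window (grey) is filled to 100% in most steps of both proliferating libraries; in arrested cells the Hoxd13 side is more covered than the middle, where 5 steps average 25.5% in WT and 23.0% in SS.

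The mark was not limited to the cluster but thinned out on both sides. Of the 40 surrounding steps of 5 kb, 9 were covered to at least 50% in proliferating WT and 8 in proliferating SS cells, whereas 29 and 28 of the 29 steps of the window were. The 100 kb on the Hoxd13 side were covered to 23.8% in WT and 23.6% in SS cells, and the 100 kb on the Hoxd1 side to 26.7% and 25.1%. Walking outwards until 20 kb held no peak, the marked territory ended at 74420057 and 74662095 in proliferating WT cells. In proliferating SS cells it ended at 74420099 and 74662652, so the outer ends lay within 42 and 557 bp of those in WT cells. The arrested SS territory was a little shorter, from 74422250 to 74654661. In arrested WT cells peaks ran on with no such gap from 74388154 to 75448121, a span of 1059968 bp. Its high end thus lay far beyond those of the other 3 H3K27me3 lists. That list held 656342 peaks, against 143252 to 227847 in the others, and the rule depends on how dense a list is. Its steps from 74665001 to 74720000 were covered to between 0% and 14.2%. The span is therefore not comparable with the territories of the other lists. The nearest peak below the window lay 1037 bp away in proliferating WT and 1240 bp away in proliferating SS cells. Above the window the distances were 3525 and 679 bp, and 1 WT peak, of 2981 bp, crossed the high border.

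Between genotypes the proliferating lists differed only at the borders of the window. The difference, SS minus WT, was -1.86 percentage points, and 26 of the 29 steps were covered alike. The window shortened by 10 kb at each end was covered to 100% in both. At the Hoxd1 end 2 steps were lower in SS cells by at least 25 points, 71.5% against 100% at 74610001-74615000 and 39.8% against 83.5% at 74615001-74620000. The step at the Hoxd13 end, 74475001-74480000, was covered to 58.7% in SS and 79.8% in WT cells. No step was higher by at least 25 points in SS cells. Over all 165381 autosomal steps with a peak in either list, 2.77% were lower in SS cells by that much and 11.1% were higher. Steps already covered to 100% in WT cells could not rise, and steps covered to less than 25% could not fall by 25 points. Summed over the autosomes, proliferating SS peaks covered 1.21 times the WT length, and in the window 0.981 times.

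Arrested cells showed a broken pattern, and here the genotypes differed. In arrested WT cells 42.5% of the window was covered, in 73 pieces, the longest of 4505 bp at 74512086-74516590. In SS cells 65.5% was covered, in 33 pieces, the longest of 31874 bp at 74492079-74523952. SS cells thus covered 23.0 percentage points more, a ratio of 1.54, whereas over all autosomes the SS list covered 0.863 times the WT length with 0.347 times as many peaks. Of the 29 steps, 13 were higher in SS cells by at least 25 points and 1 was lower. The background over 390203 autosomal steps was 5.38% higher and 1.96% lower. The sign of this difference depends on the threshold. The authors' scores in the window reached 49.4 in the WT list and 4.60 in the SS list. At 1 common score cutoff, the higher of the lists' medians, 0% of the window stayed covered in SS and 31.5% in WT cells; joining peaks within 1 kb gave a difference of 11.1 points, and equally long lists gave 42.1 points.

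The excess in arrested SS cells was larger towards Hoxd13. The 71 kb nearer Hoxd13 were covered to 84.6% in SS and 51.7% in WT cells, and the 71 kb nearer Hoxd1 to 46.4% and 33.3%. Much of the SS coverage lay in 3 long peaks, at 74478992-74491454, 74492079-74523952 and 74524723-74535987. Together these filled 97.6% of a stretch of 57.0 kb, which held 27 separate peaks and a coverage of 57.0% in WT cells. Outside that stretch the window was covered to 44.0% in SS and 32.7% in WT cells. The stretch was defined by the SS peaks, so its SS value describes them and tests nothing. The steps with the largest excess in SS cells were 74490001-74495000, with 25.8% in WT and 87.5% in SS, and 74480001-74485000, with 38.9% and 100%. The next was 74580001-74585000 on the Hoxd1 side, with 20.7% and 74.8%. The only step lower by at least 25 points was 74595001-74600000, with 57.1% in WT and 25.9% in SS cells.

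**Figure D2:**
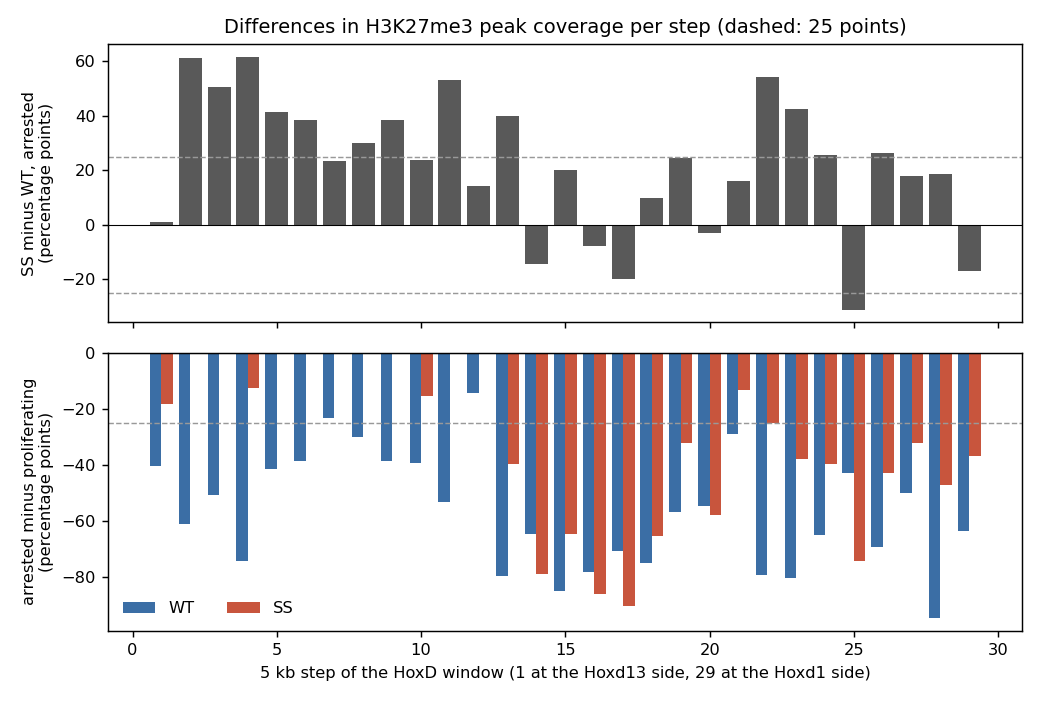
Difference in H3K27me3 coverage for each of the 29 steps of 5 kb (x axis, step 1 at the Hoxd13 side), in percentage points (y axis), between arrested SS and WT cells (upper panel) and between arrested and proliferating cells of each genotype (lower panel). Dashed lines mark 25 points; 13 steps lie above the upper line and 1 below the lower one between genotypes, and 27 WT and 16 SS steps lie below the line after arrest.

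Arrest went with lower H3K27me3 coverage of the cluster in both genotypes. In WT cells arrested minus proliferating coverage was -56.3 percentage points, and 27 of 29 steps were lower by at least 25 points, against 12.8% of 379991 autosomal steps. In SS cells it was -31.5 points, and 16 steps were lower by at least 25 points, against 24.0% of 206605 autosomal steps. No step of the window was higher by that much in either genotype, where 1.54% of autosomal steps were higher in WT and 0.899% in SS cells. A window covered to nearly 100% in proliferating cells could only be equal or lower. Autosomal steps covered to less than 25% in proliferating cells could not be lower by 25 points. The median autosomal window of equal length was covered to 2.39% in proliferating WT and 4.03% in proliferating SS cells. The autosomal shares are therefore no like-for-like background for HoxD. Equally long lists gave -89.4 points in WT cells and joined peaks -36.7 points, and the common score cutoff gave -52.7 points in SS cells. In SS cells 9 steps stayed fully covered, all of them in the part nearer Hoxd13, and in WT cells none did. The WT steps nearest their proliferating value were 74530001-74535000, still covered to 85.7%, and 74505001-74510000, at 76.7%. The least covered WT steps against 100% in proliferating cells were 74610001-74615000, at 5.72%, and 74545001-74550000, at 15.2%. In SS cells they were 74555001-74560000, at 9.70%, and 74550001-74555000, at 14.1%. The arrested WT list differed in kind from the others: its median peak was 138 bp long, against 439 bp in the arrested SS list and 723 and 702 bp in the proliferating lists. Its part in these differences was not tested.

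The arrested libraries of both genotypes shared a low stretch in the middle of the cluster. The 5 steps from 74540001 to 74565000, chosen after their values were seen, had a coverage of 25.5% (WT) and 23.0% (SS). The rest of the window was covered to 46.1% and 74.6%. Single steps outside this stretch were lower still. In WT cells these included 74535001-74540000 (20.4%), 74580001-74585000 (20.7%), 74585001-74590000 (19.7%), 74610001-74615000 (5.72%) and 74615001-74620000 (19.9%). In SS cells the last of these was covered to 2.90%. The stretch thus stood out less in WT than in SS cells. Both proliferating lists covered the same 5 steps to 100%. Inside this stretch 2 of the 4 longest gaps shared by the arrested lists were found, 74555902-74558349 and 74553383-74555137, of 2448 and 1755 bp. The longest shared gap, of 2942 bp, lay at 74611216-74614157 near the Hoxd1 end. Across the 29 steps the arrested WT and SS profiles had a Spearman correlation of 0.677, as a description, since neighbouring steps share peaks. In bases, 33.0% of the window was covered in both arrested lists, 32.4% in SS alone, 9.45% in WT alone and 25.1% in neither. Of the bases covered in WT cells 77.8% were also covered in SS cells, and of those covered in SS cells 50.4% were also covered in WT cells.

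H3K27me3 at HoxD was far above its level elsewhere in each of the 4 libraries. Window coverage was 3.91 and 3.98 times that of the surroundings in proliferating WT and SS cells, and 4.28 and 7.30 times in arrested WT and SS cells. Relative to all autosomes the ratios were 10.4, 8.45, 5.68 and 10.1 in the same order. Among 17399 autosomal windows of the same length, laid end to end, 2 were at least as covered in WT and 6 in SS cells that proliferated, and 9 and 29 in those that were arrested. The median window was covered to 2.39%, 4.03%, 6.16% and 2.55%. The autosomal windows were laid without regard to where domains begin and can cut them, whereas the HoxD window was placed on the cluster. This favours HoxD in the count. Within that limit HoxD stayed among the most marked windows after arrest, although much of its own coverage was no longer called.

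**Figure D3:**
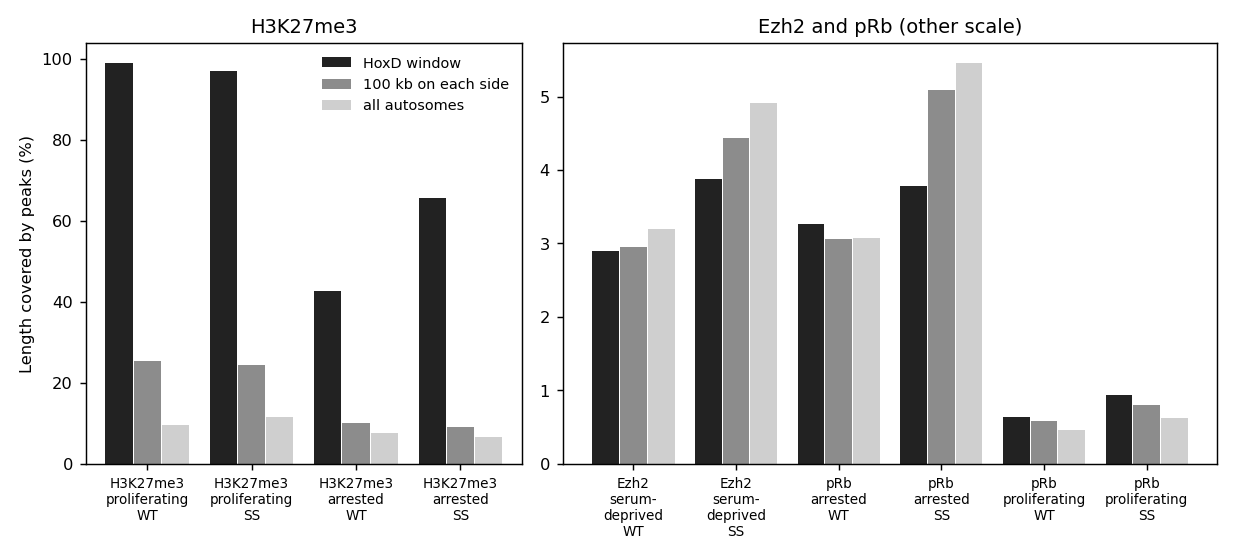
Share of length covered by peaks (y axis, %; the panels differ in scale) in the HoxD window, in the 100 kb on each side and on all autosomes, for each of the 10 libraries. The 4 H3K27me3 libraries stand at 42.5% to 98.8% in the window and at 25.3% or less beside it, while Ezh2 and pRb stand at 0.629% to 3.88% in the window, 0.743 to 1.17 times their surroundings.

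Proliferating H3K27me3 lists held few domains as long as HoxD. Merging the peaks over 10 kb of both proliferating lists gave 22 autosomal domains of at least 100 kb, among which HoxD ranked 7 by length. This definition did not use the arrested lists, in which the HoxD domain was covered to 42.6% in WT cells, close to the median of 43.3% over the other domains. In SS cells it was covered to 66.3%, where the other domains ranged from 64.9% to 90.8% with a median of 80.1%, and only 1 lay lower. With each list as deposited, coverage was higher in arrested SS than in arrested WT cells in all 22 domains. The common score cutoff that turned the sign in the HoxD window was not applied to these domains. The HoxD difference of 23.7 points ranked 19, against a median of 38.5 over the others, so the sign of the genotype difference was not particular to HoxD. With the higher-scoring part of each list the HoxD domain ranked 4 from the lowest in SS cells instead of 2, and with peaks within 1 kb joined it ranked 1.

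**Figure D4:**
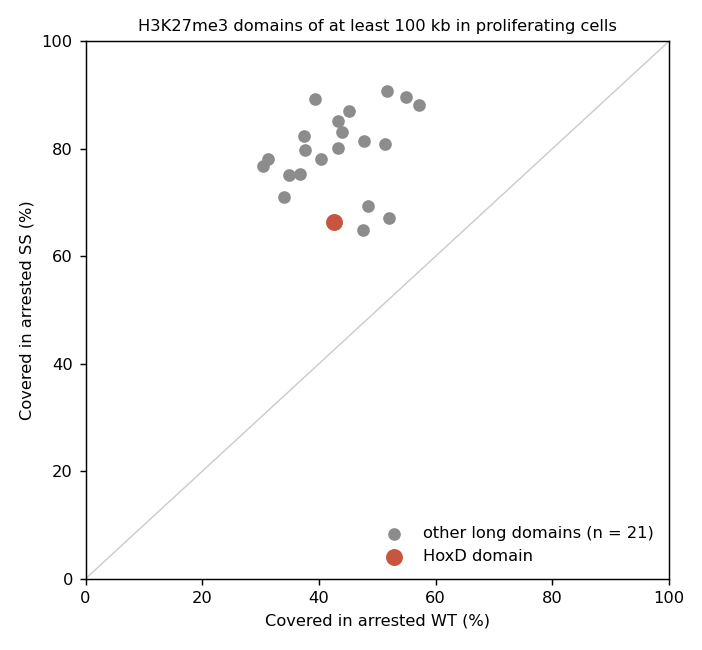
Coverage of the 22 autosomal H3K27me3 domains of at least 100 kb by peaks of arrested WT cells (x axis, %) and arrested SS cells (y axis, %), 1 point per domain, with the line of equality. With each list as deposited, all points lie above the line, and HoxD (red), at 42.6% and 66.3%, is the second lowest on the SS axis.

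In serum-deprived cells, the only ones with Ezh2 libraries, Ezh2 peaks did not mark HoxD in the way H3K27me3 did. They covered 2.89% of the window in WT and 3.88% in SS cells. The surroundings stood at 2.95% and 4.43% and all autosomes to 3.20% and 4.91%, so the window lay at 0.978 and 0.876 times its surroundings. Of the 17399 windows of equal length 66.4% in WT and 82.0% in SS cells were at least as covered. Most Ezh2 peaks there had the shortest length in their list. The median was 50 bp in WT and 51 bp in SS cells, the same as over the whole lists. The longest in the window were 271 and 373 bp. The peaks with the highest authors' score, at 74537656-74537705 in WT and 74527156-74527206 in SS cells, were likewise 50 and 51 bp long. SS cells covered 0.997 points more of the window than WT cells. With equally long lists, a difference of -0.128 points remained. Of 43 WT peaks, 4 (9.30%) overlapped an SS peak by at least 1 bp, as did 11.5% of all autosomal WT peaks. Of 54 SS peaks, 4 (7.41%) overlapped a WT peak, as did 8.15% of all autosomal SS peaks. The shared bases made up 0.137% of the window, beside 0.112% for the product of the 2 coverages. The largest step difference was at 74565001-74570000, with 12.3% covered in WT cells and no peak in SS cells. The largest excess in SS cells was at 74605001-74610000, with 1.00% in WT and 8.82% in SS.

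pRb coverage of HoxD was 0.743 to 1.17 times that of the surroundings and 0.694 to 1.5 times that of the autosomes. In arrested cells they covered 3.27% of the window in WT and 3.78% in SS cells, with 3.06% and 5.09% in the surroundings and 3.07% and 5.45% over the autosomes. In proliferating cells coverage was 0.629% (WT) and 0.930% (SS) in the window, with the surroundings at 0.584% and 0.794% and the autosomes at 0.456% and 0.619%. The median pRb peak in the window was 149, 160, 136 and 148 bp long in arrested WT, arrested SS, proliferating WT and proliferating SS cells. Over the whole lists the medians were 145, 166, 148 and 145 bp in the same order. The highest scores were found at 74552346-74552481 in arrested WT, inside the low H3K27me3 stretch, and at 74544334-74544495 in arrested SS cells, inside it as well. In the pRb lists these scores have no stated unit; 0.548% of the arrested WT list and 6.43% of the arrested SS list scored higher. The leading proliferating peaks lay at 74513396-74513537 in WT and 74517572-74517778 in SS cells. SS cells covered 0.509 points more than WT cells when arrested and 0.301 points more when proliferating. Equally long lists turned both differences, to -1.01 and -0.129 points. An arrested SS peak overlapped 3 of the 24 arrested WT peaks (12.5%), against 11.1% of all autosomal peaks of that list, and the shared bases made up 0.155% of the window beside a product of 0.124%. In arrested cells the overlap between genotypes in the window was thus near that of the list as a whole. The 3 places shared in arrested cells were covered by WT peaks at 74499825-74500228, 74509019-74509176 and 74592524-74592676. None of the 6 proliferating WT peaks overlapped a proliferating SS peak, against 1.70% over the autosomes. So few peaks cannot be set against so small a share, and no conclusion is drawn for proliferating cells.

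**Figure D5:**
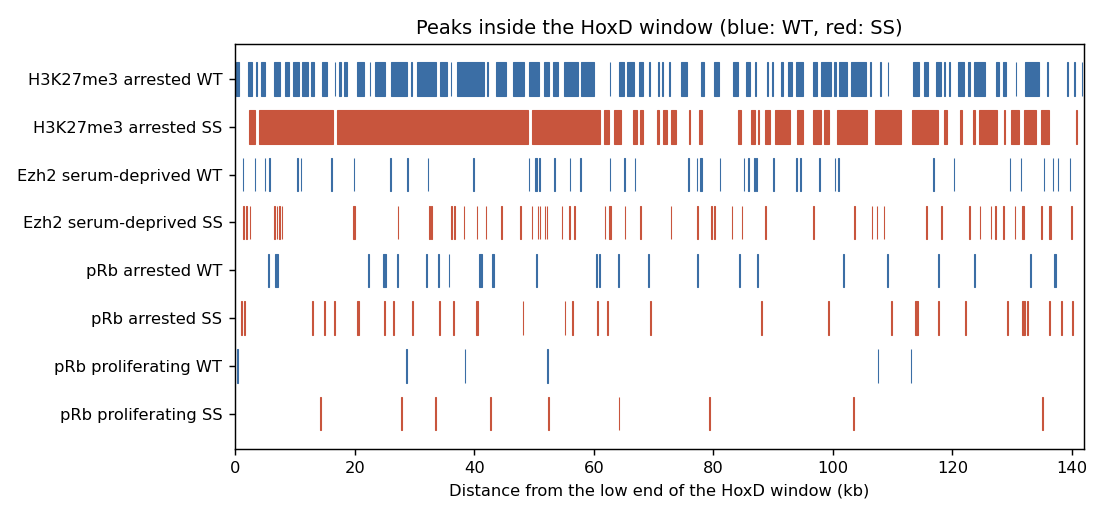
Position of each peak of the 2 arrested H3K27me3, the 2 Ezh2 and the 4 pRb lists along the HoxD window (x axis, distance from its low end in kb), 1 row per library, with WT in blue and SS in red; very short peaks are drawn with a minimum line width. The 3 long SS H3K27me3 peaks stand out at the Hoxd13 side, and the Ezh2 and pRb peaks are scattered over the window in every row.

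The overlap of pRb and Ezh2 peaks at HoxD was low, as it was over the genome. Of 166 peaks in the 6 pRb and Ezh2 lists, 128 (77.1%) overlapped no peak of another of these lists, against 72.9% over the autosomes. No peak of the window overlapped peaks of 2 or more other lists, against 3.57%. These shares also count overlap between lists of the same antibody, so they do not measure overlap of pRb with Ezh2 alone. In WT cells 1 of 24 arrested pRb peaks, at 74525322-74525550, overlapped an Ezh2 peak, a share of 4.17% against 10.5% over the autosomes. In SS cells 4 of 30 did, or 13.3% against 16.7%, including 74606677-74607070 and 74611180-74611346. The bases shared by arrested pRb and Ezh2 made up 0.116% of the window in WT cells, beside 0.0945% for the product of the 2 coverages, and 0.365% beside 0.147% in SS cells. These values rest on 165 and 518 bp. Arrested pRb and arrested H3K27me3 shared 1.54% of the window in WT cells (product 1.39%) and 2.42% in SS cells (product 2.48%). Ezh2 and arrested H3K27me3 shared 1.12% (product 1.23%) and 2.32% (product 2.54%). Under the proliferating WT H3K27me3 peaks lay all 43 and 54 Ezh2 peaks and all pRb peaks but 1 of the 6 in proliferating WT cells, in a window of which 98.8% was covered. All Ezh2 libraries were from serum-deprived cells, so Ezh2 in proliferating cells, where H3K27me3 coverage was near full, was not measured. In the lists at hand no excess of Ezh2 or pRb peaks over the surroundings matched the H3K27me3 coverage of HoxD. The lack of an Ezh2 or pRb excess on the scale of H3K27me3 was not particular to HoxD. Relative to the autosomes, HoxD stood at 0.903 (WT) and 0.79 times (SS) for Ezh2. For pRb it stood at 1.07 and 0.694 times in arrested and 1.38 and 1.5 times in proliferating cells. Among the 22 long domains HoxD ranked 16 (WT) and 19 (SS) from the highest for Ezh2. For pRb it ranked 12 and 20 in arrested and 13 and 7 in proliferating cells. Over the other domains of at least 100 kb, median Ezh2 coverage was 3.30% in WT and 4.89% in SS cells (autosomes 3.20% and 4.91%). Median pRb coverage there was 3.71% and 4.69% in arrested cells (autosomes 3.07% and 5.45%). In proliferating cells it was 0.542% and 0.623% (autosomes 0.456% and 0.619%).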

How the data were processed

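Peak lists of 10 immunoprecipitated libraries were used, with groups from the sample titles; the 10 input libraries were not used here. Per the submitters' processing notes, Bowtie2, MACS2, HOMER and bedtools were applied with build mm9; the sources used here give no versions, settings or control. Each library has its own list. The 4 deposited pRb lists give a score per peak with no stated unit. The other 6 deposited lists give each peak's score, its fold enrichment (a ratio), and both p-value and q-value as -log10; the q-value ranked peaks here. No reads were counted, so depth is unknown, and a deeper library yields more and weaker peaks.

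Covered share is the length of a window or step under at least 1 peak. Steps of 5 kb start at the window's low end, so the last reaches 3 kb beyond it. A step counted as changed when its share differed by at least 25 percentage points, a fixed size that stands in for a test. Positions are in mm9, counted from 1. Named positions are the 3 steps of largest gain and loss per comparison, and the longest and highest-scoring peak per list. The members, lists and alternatives were chosen with earlier results of these data known. Step coverage was tested on simulated peaks. Newcombe 95% intervals over steps served only to say whether an alternative moved a value. Promoter and microRNA sequences are from RefSeq (GRCm38.p6). Software was matplotlib 3.10.9, pandas 2.3.3 and numpy 2.4.6 under Python 3.11.15, with scipy 1.17.1.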

Additional observations from a re-analysis of the deposited data

Results flagged for a closer look

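The genotype difference in H3K27me3 coverage of HoxD had opposite signs in the 2 growth conditions: SS minus WT was 23.0 percentage points in arrested cells and -1.86 points in proliferating cells. The proliferating value comes from 3 steps of 5 kb, the first and the last 2 of the window. Proliferating WT cells already covered 98.8% of the window, which left little room for a higher SS value. With the window shortened by 10 kb at each end the proliferating difference was 0. At the common score cutoff the arrested difference was -31.5 points. The opposite signs thus depend on these settings. With 1 library per group, the difference between the conditions was not tested.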

How the results depend on the processing

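Of 125 values recomputed under alternatives, 10 changed sign and 10 others moved beyond the interval of the value reported, or beyond a fixed ratio for counts and ranks. These intervals are wide, so values inside them can differ much. The proliferating H3K27me3 genotype difference was 0 with the window shortened by 10 kb at each end. The sign of the arrested H3K27me3 genotype difference held under 6 of 7 alternatives, between 11.1 points with peaks within 1 kb joined and 42.1 points with equally long lists, and reversed to -31.5 points at the common score cutoff, which was added after the data were seen. Arrested minus proliferating H3K27me3 moved to -89.4 points in WT cells with equally long lists and to -52.7 points in SS cells at the common cutoff. Small pRb and Ezh2 differences changed sign. With equally long lists SS minus WT became -0.128 points for Ezh2, -1.01 for arrested pRb and -0.129 for proliferating pRb, the last also -0.206 in the higher-scoring part of each list. The window minus its surroundings became -0.890 points for arrested WT pRb with 200 kb on each side, -0.176 in the higher-scoring part and -1.18 with peaks joined. It became -0.0651 for proliferating WT pRb with peaks joined and -0.0316 for proliferating SS pRb in the higher-scoring part. Counting steps that differ by at least 50 points left 5 higher and 0 lower in arrested SS against WT, 0 lower in proliferating SS against WT and 7 lower after arrest in SS cells. The single step lower in arrested SS cells was 0 with steps of 10 kb and with equally long lists. Peaks of at least 500 bp gave no value for Ezh2 or pRb, which had none in the window. No paired analysis was possible because each group had 1 library.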

Other observations

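Among the 22 long H3K27me3 domains, the 4 least covered in arrested SS cells were HoxD with 66.3%, 1 on chromosome 11 at 96005560-96248997 with 64.9%, 1 on chromosome 15 at 102702120-102909341 with 67.1% and 1 on chromosome 6 at 52110166-52232917 with 69.3%. The next lowest, on chromosome 2 at 29050427-29153826, was covered to 71.0%. In RefSeq, chromosomes 11, 15 and 6 carry the HoxB, HoxC and HoxA clusters. Whether these domains are those clusters was not tested, since no gene positions in mm9 were used, and the domains were singled out after their values were seen. In arrested WT cells the same 4 were covered to 42.6%, 47.6%, 52.1% and 48.4%, where the domains other than HoxD ranged from 30.5% to 57.1%.

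Within the window the pRb peaks of arrested WT cells were denser on the Hoxd13 side, where the 71 kb nearer that gene were covered to 4.36% against 2.19% nearer Hoxd1. In arrested SS cells the shares were 4.20% and 3.36%. The 24 and 30 peaks behind these shares are few, and the difference was not tested.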
